A study of Mus musculus with 14 samples.

Results

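Fibroblasts of the dermis make the collagens, glycoproteins, proteoglycans and elastic fibres that hold skin together. The set described here is 34 genes of this kind, chosen by name among the 56953 genes of the counts table. They are 5 fibrillar collagen genes, 3 of type VI collagen, 2 of fibril-associated collagens, 2 of basement membrane collagen, 5 of matrix glycoproteins, 5 of fibril-binding proteoglycans and dermatopontin, 8 of elastic fibres and 4 receptors or fibroblast surface genes. All 34 passed the filter on low counts. RNA came from whole mouse skin in 14 libraries. Knockout mice carried the NEDD8fl/fl alleles and K14-CreERT, a tamoxifen-dependent recombinase under a promoter that is active in basal keratinocytes, and were induced on 5 days in a row. Their skin gave 2 libraries with imiquimod and 3 with DMSO. Cre-negative mice carried NEDD8fl/fl without the recombinase and gave 2 libraries with imiquimod and 3 with DMSO. Wild type C57BL/6J mice gave 2 libraries with each treatment. Imiquimod, a Toll-like receptor 7 agonist that gives mice a psoriasis-like inflammation, was used as Aldara cream at 5%, put on every day up to day 7 on shaved backs or right ears. The site, the age and the animal of each library are not in the labels, and induction is described only for knockout mice. The recombinase is directed at keratinocytes, so fibroblasts were not its intended target.

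The dermal matrix is built around fibrils of type I and type III collagen, on which smaller collagens, proteoglycans and dermatopontin sit and set the spacing of the fibrils. Elastic fibres consist of elastin on a scaffold of fibrillin and fibulins, and lysyl oxidases cross-link both elastin and collagen. Fibronectin, tenascin-C, thrombospondins and periostin are glycoproteins that fibroblasts deposit during repair, while Pi16 and Pdgfra mark fibroblasts themselves.

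Total counts per library lay between 5552954 and 34362477, and the 34 genes took 0.0703% to 0.588% of them. Counts are of tags near the 3′ end, and the tests compare each gene across groups, not genes with each other. Reads from X and Y genes marked all wild-type and knockout DMSO libraries as female and the knockout imiquimod and Cre-negative imiquimod libraries as male. In Cre-negative DMSO skin 2 libraries were male and 1 was female. The share of counts on the 18S ribosomal gene ran between 3.84% and 19.1%, with knockout DMSO library 1 and Cre-negative imiquimod library 2 at the top. Nedd8 itself had a log2 fold change of -0.47 ± 0.40 (SE, adjusted p = 0.403) in knockout against Cre-negative skin with DMSO and -0.76 ± 0.50 (adjusted p = 0.326) with imiquimod. Against wild-type DMSO skin, knockout DMSO skin had a log2 fold change of -0.07 ± 0.45 (adjusted p = 0.93). None of these passed the test. Skin also holds cells outside the reach of the recombinase, and whether the 3′ tag lies in the deleted part is not given in the sources used here. Markers of cartilage, the tissue that stiffens the ear, summed to at most 1.19 CPM in any library, and Schwann cell markers to 31.8 to 64.4 CPM. The series text speaks of a NEDD8 inhibitor in wild-type mice, and the group labels used here name no such treatment.

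Summed over the 34 genes, expression was 4839 ± 1348 CPM in knockout imiquimod skin and 2906 ± 636 CPM in knockout DMSO skin (mean ± SD, n = 2 and 3). CPM is a gene's count scaled to a common depth with TMM factors. Cre-negative skin stood at 1886 ± 966 CPM with imiquimod and 4311 ± 250.4 CPM with DMSO (n = 2 and 3), and wild-type skin at 1157 ± 139.9 CPM with imiquimod and 3225 ± 1507 CPM with DMSO (n = 2 each). In these sums the order of imiquimod and DMSO in knockout skin was thus the opposite of that in the other genotypes. A sum weights genes by their level, and 3 abundant genes carried the rise in knockout skin. Mean CPM with imiquimod and DMSO was 1249 and 303 for Dcn, 842 and 92.7 for Tnc, and 379 and 85.5 for Fn1. The median log2 fold change over the 34 genes was 0.07 there, so the reversed order is not a trait of the whole set. Fibrillar collagens alone summed to 465 ± 96.7 CPM in knockout imiquimod and 769.7 ± 273 CPM in knockout DMSO skin, and to 644 ± 365 CPM in Cre-negative imiquimod and 1880.3 ± 117 CPM in Cre-negative DMSO skin. The receptors and surface genes summed to 159 ± 73.2 CPM in knockout imiquimod and 43.4 ± 5.05 CPM in knockout DMSO skin, and to 30.2 ± 15.7 CPM in Cre-negative imiquimod and 83.6 ± 13.2 CPM in Cre-negative DMSO skin. As means, with no test, imiquimod skin of knockouts was thus below their DMSO skin in fibrillar collagens and above it in surface genes. In whole tissue, fewer fibroblasts and less RNA per fibroblast cannot be told apart. A gene is said to have risen or fallen where the quasi-likelihood test of edgeR gave a p under 0.05 after Benjamini-Hochberg adjustment across all 16027 genes tested. Single comparisons, some of which share libraries, called 11.1% to 29.6% of all genes. Over 7 comparisons, 30 of the 34 genes passed this test at least once, 10 of them in both directions. The matching shares of all genes over the 7 comparisons were not computed, so these counts are not a trait of the set. Col3a1, Col6a3, Lum and Pdgfrb passed in none. These code for type III collagen, a chain of type VI collagen, lumican, a proteoglycan of fibrils, and a receptor for platelet-derived growth factor. Over the 14 libraries Col3a1 ranged over 29.2 to 486 CPM, Col6a3 over 10.5 to 178 CPM, Lum over 4.46 to 27.7 CPM and Pdgfrb over 0.518 to 16.6 CPM. The highest Pdgfrb values were in the knockout imiquimod libraries, at 14.99 and 16.6 CPM, with 3.87 and 9.28 CPM in Cre-negative imiquimod skin.

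**Figure D1:**
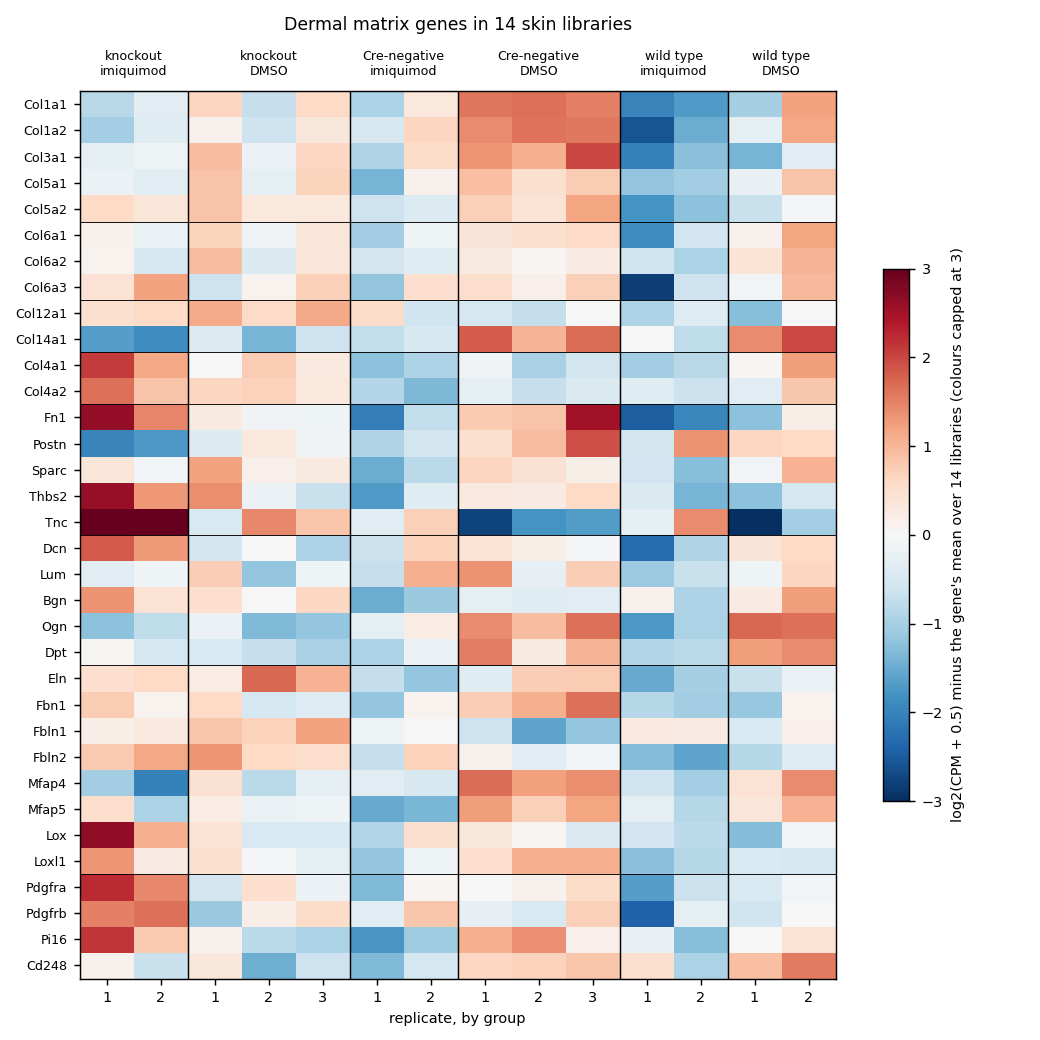
Each row is a gene and each column a library, ordered by group with the knockout groups at the left. Colour is log2(CPM + 0.5) minus the gene's mean over the 14 libraries, capped at 3, with lines between roles. The summed level behind it was 4839 ± 1348 CPM in knockout imiquimod skin and 1886 ± 966 CPM in Cre-negative imiquimod skin.

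In the skin of Cre-negative mice, imiquimod went with lower expression of much of the set. Against DMSO, 13 of 34 genes fell and 2 rose, where 10.1% of all genes fell and 8.15% rose (18.2% either way). The median log2 fold change was -1.31 over the set and -0.06 over all genes. Those that fell reached across the roles and included 1 of 5 fibrillar collagens, 3 of 5 glycoproteins, 2 of 5 proteoglycans and dermatopontin, and 5 of 8 elastic fibre genes. Libraries of the treatments did not overlap for 2 members higher and 23 lower, against 24.8% and 29.5% of all genes.

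Mfap5, a glycoprotein of elastic microfibrils, stood at 1.72 and 1.95 CPM in the Cre-negative imiquimod libraries and at 14.5, 9.85 and 13.7 CPM in the DMSO libraries. Every imiquimod library was below every DMSO library, with a log2 fold change of -2.77 ± 0.51, adjusted p = 0.00257. Col14a1, the gene of a collagen on the surface of fibrils, had 2.73 and 3.36 CPM with imiquimod and 18.4, 10.5 and 16.6 CPM with DMSO. It fell by a like amount (-2.30 ± 0.45, adjusted p = 0.00388), and these 2 genes kept their call under every alternative tried. Fibronectin, Fn1, had 19.4 and 49.8 CPM with imiquimod and 144, 151 and 483 CPM with DMSO. Its libraries did not overlap either, and it fell by the most of the 34 genes (-2.90 ± 0.67, adjusted p = 0.00983). Pi16, which marks fibroblasts around vessels and in the fascia, stood at 7.32 and 11.97 CPM with imiquimod and at 54.3, 66.9 and 28.4 CPM with DMSO (-2.36 ± 0.55, adjusted p = 0.011). All imiquimod values of Pi16 were below the lowest DMSO value.

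Dermatopontin, Dpt, a small protein that binds decorin and collagen fibrils, fell with a log2 fold change of -1.56 ± 0.39, adjusted p = 0.0145, and the type V collagen gene Col5a2 with -1.35 ± 0.35, adjusted p = 0.0185. Periostin, Postn, a glycoprotein of repair, fell too (-1.99 ± 0.54, adjusted p = 0.0218). The other genes that fell were Mfap4, Loxl1, Sparc, Fbn1, Ogn and Eln, with log2 fold changes between -2.13 and -1.43. Tenascin-C, Tnc, a glycoprotein of wounds and inflamed tissue, went the other way. It had 42.3 and 86.6 CPM with imiquimod and 7.32, 14.9 and 16.1 CPM with DMSO (2.34 ± 0.76, adjusted p = 0.047), and Fbln1, the gene of fibulin 1, also rose (1.08 ± 0.35). The main fibrillar collagens did not pass the test although their libraries did not overlap, with -1.77 ± 0.60, adjusted p = 0.0538 for Col1a1 and -1.52 ± 0.51, adjusted p = 0.055 for Col3a1. Decorin, Dcn (-0.03 ± 0.46, adjusted p = 0.976), and Pdgfra (-0.73 ± 0.48, adjusted p = 0.308) did not pass it either. Without Cre-negative imiquimod library 1 the count of 15 genes dropped to 2, which were Mfap5 and Col14a1, and without any other library it was 7 to 9. With library size in place of TMM scaling the split was 22 lower and 0 higher.

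With all 14 libraries in 1 model, wild-type skin showed a decrease of much the same breadth. With imiquimod 13 of 34 genes fell and 1 rose, where 11.8% of all genes fell and 9.59% rose (21.4% either way), and the median log2 fold change was -1.24 over the set and -0.09 over all genes. Here 4 of 5 fibrillar collagen genes and 2 of 3 type VI collagen genes fell, while 1 of 8 elastic fibre genes did. Of the genes that fell, Col5a2, Col14a1, Sparc, Ogn, Dpt and Mfap4 also fell in Cre-negative skin, which makes 46.2% of each list. Each list held 13 of the 34 genes, so unrelated lists would share some too. Whether the overlap exceeds that was not tested. Tnc rose in both genotypes. These comparisons share no library. The Tnc call was lost in 11 of 16 alternatives in Cre-negative skin and in 7 of 14 in wild-type skin. Both Tnc calls kept their direction but did not pass with library size alone, the stricter filter or a term for sex. Wild-type libraries of the treatments did not overlap for 2 members higher and 25 lower, against 29.5% and 34.3% of all genes. Whether the responses of the genotypes differ from each other was not tested.

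Osteoglycin, Ogn, a small leucine-rich proteoglycan, had 0.989 and 2.03 CPM in the wild-type imiquimod libraries and 15.6 and 14.9 CPM with DMSO. The gap was the widest of the set, with a log2 fold change of -3.36 ± 0.53, adjusted p = 0.00121. Dpt stood at 21.3 and 22.3 CPM with imiquimod and 94.5 and 107 CPM with DMSO (-2.21 ± 0.42, adjusted p = 0.00329), and Col14a1 at 4.85 and 2.65 CPM with imiquimod and 13.8 and 20.6 CPM with DMSO (-2.19 ± 0.46, adjusted p = 0.00597). For each of these 3 genes the treatments were apart in every library, and each kept its call under every alternative. The type I collagen genes fell as well. Col1a1 had 61.5 and 76.3 CPM with imiquimod and 125 and 570.0 CPM with DMSO (-2.34 ± 0.64, adjusted p = 0.0214), and Col1a2 had a log2 fold change of -2.56 ± 0.56, adjusted p = 0.00773. The DMSO libraries of Col1a1 lay far apart, with the lower one still above both imiquimod libraries.

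Among the other genes that fell in wild-type skin, Col4a1 had -1.75 ± 0.46, adjusted p = 0.0181 and Dcn -1.94 ± 0.52, adjusted p = 0.0195. Mfap4, Col6a1, Col5a1, Col6a2, Sparc and Col5a2 had log2 fold changes between -2.21 and -1.24. Tnc rose (2.67 ± 0.88, adjusted p = 0.0455), with 43.3 and 143 CPM with imiquimod and 3.01 and 25.9 CPM with DMSO and no overlap. Col3a1 (-0.84 ± 0.54, adjusted p = 0.275), Pdgfra (-0.87 ± 0.52, adjusted p = 0.247), Pi16 (-0.92 ± 0.55, adjusted p = 0.249) and Postn (0.08 ± 0.54, adjusted p = 0.937) did not pass the test. Without wild-type imiquimod library 1 the count of 14 was 3, without DMSO library 2 it was 4 and without imiquimod library 2 it was 9. In a model of the wild-type libraries alone it was 4, where the same kind of model for Cre-negative skin gave 20 in place of 15. Library size scaling gave 21 lower and 0 higher.

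Markers of other cells moved with these changes. Skeletal muscle markers summed to 1069.8 to 1912 CPM with imiquimod and 7866 to 21160.5 CPM with DMSO in Cre-negative skin, and all 11 of 11 fell. In wild-type skin they summed to 1739 to 3281 CPM with imiquimod and 8904 to 11859 CPM with DMSO, and 7 of 11 fell. Adipocyte markers fell in 6 of 10 cases in Cre-negative and 8 of 10 in wild-type skin. Pericyte and smooth muscle markers, from cells of the vessel wall that share genes with fibroblasts, summed to 115 CPM in both Cre-negative imiquimod libraries and 418 to 699 CPM with DMSO, and 5 of 8 fell. In wild-type skin they summed to 193 to 464 CPM with imiquimod and 599.9 to 834 CPM with DMSO, and 4 of 8 fell. Neutrophil markers summed to 85976 to 192860.0 CPM with imiquimod and 65.6 to 691 CPM with DMSO in Cre-negative skin, and 8 of 8 rose in each genotype. The part of these shifts in the values of the 34 genes was not tested.

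**Figure D2:**
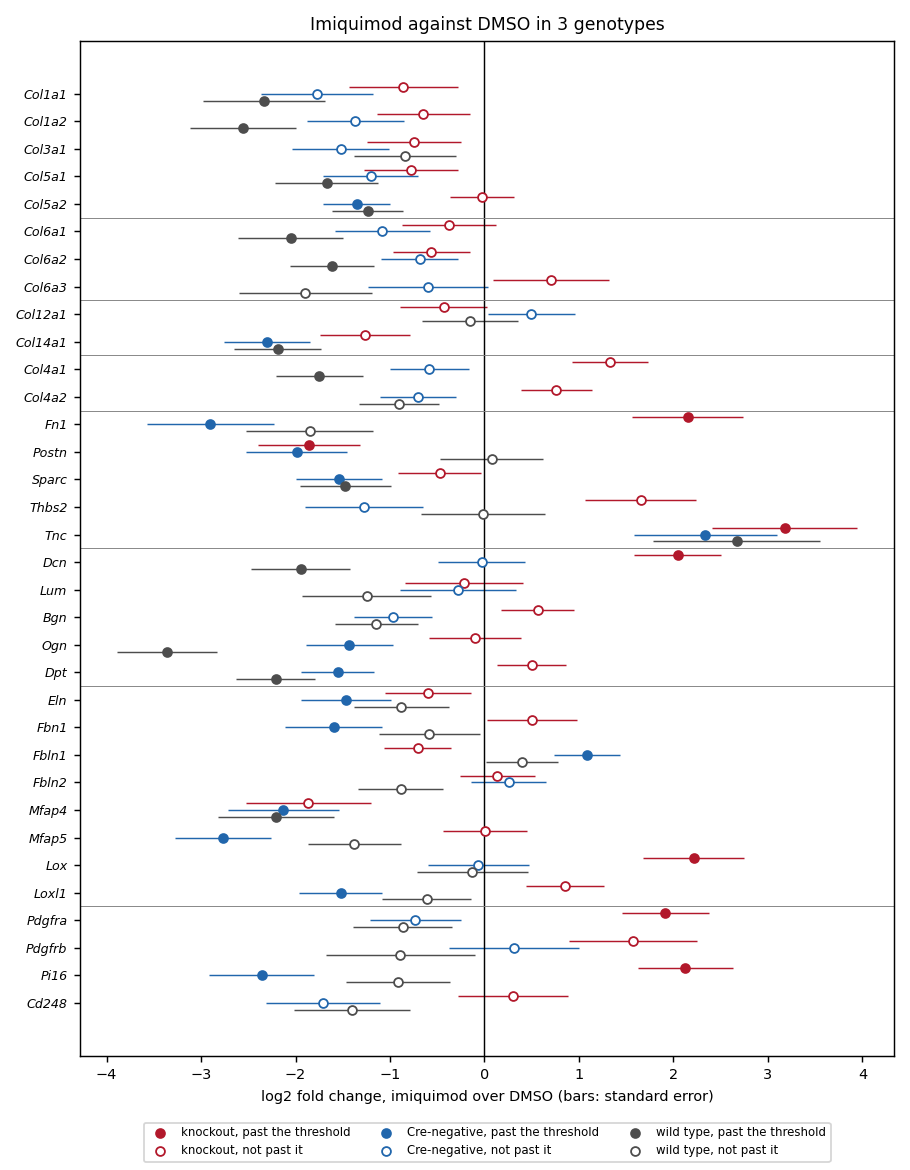
Log2 fold change of imiquimod over DMSO for each gene in knockout, Cre-negative and wild-type skin, with bars of 1 standard error and filled points where the adjusted p was under 0.05. The Cre-negative and wild-type points lie mostly left of 0, with medians of -1.31 and -1.24, and the knockout points on both sides, with a median of 0.07.

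In knockout skin the genes that passed were mostly higher with imiquimod. Against knockout skin with DMSO, 6 of 34 genes rose and 1 fell, where 8.56% of all genes rose and 2.52% fell (11.1% either way), and the median log2 fold change was 0.07 over the set and -0.04 over all genes. The 6 that rose were Dcn, Pi16, Lox, Tnc, Pdgfra and Fn1, and none of the 12 collagen genes passed the test. Libraries did not overlap for 9 members higher and 4 lower, against 22.5% and 18.9% of all genes.

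Dcn had 1487 and 1012 CPM in the knockout imiquimod libraries and 282, 408 and 218 CPM in the knockout DMSO libraries. Decorin was thus higher in every imiquimod library (2.04 ± 0.46, adjusted p = 0.0114). Pi16 stood at 115 and 44.5 CPM with imiquimod and 28.02, 14.5 and 13.1 CPM with DMSO (2.12 ± 0.50, adjusted p = 0.0152). The receptor gene Pdgfra stood at 74.9 and 42.9 CPM with imiquimod and 10.4, 22.3 and 13.8 CPM with DMSO (1.92 ± 0.46, adjusted p = 0.0172). Neither gene's libraries overlapped, and in both cases imiquimod library 1 was the highest of the 14. Lox, the lysyl oxidase that cross-links collagen and elastin, had 124 and 40.6 CPM with imiquimod and 25.98, 13.98 and 13.8 CPM with DMSO (2.22 ± 0.53, adjusted p = 0.0168). Fn1 had 526 and 232 CPM with imiquimod and 101, 78.03 and 77.1 CPM with DMSO (2.15 ± 0.59, adjusted p = 0.0312). Both genes, too, were higher in every imiquimod library.

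Tnc reached 1078 and 605 CPM in knockout imiquimod skin, against 38.2, 145 and 94.6 CPM in knockout DMSO skin (3.18 ± 0.77, adjusted p = 0.0171). These imiquimod values were the highest of the gene in any library. Postn went down, with 9.36 and 11.2 CPM with imiquimod and 28.8, 47.7 and 35.2 CPM with DMSO (-1.86 ± 0.54, adjusted p = 0.0413). Col1a1 (-0.86 ± 0.57, adjusted p = 0.367) and Col3a1 (-0.75 ± 0.50, adjusted p = 0.366) did not pass the test. Macrophage markers rose in 5 of 8 cases, with 858 to 1819.6 CPM with imiquimod and 229 to 601 CPM with DMSO. Neutrophil markers rose in 6 of 8 cases, with 53858 to 113694 CPM with imiquimod and 17049 to 63212 CPM with DMSO, and adipocyte markers fell in 2 of 10. The part of these cells was not tested. All calls were lost without imiquimod library 1 and without DMSO library 3. The knockout imiquimod libraries were male and the knockout DMSO libraries female, so within this genotype sex and treatment cannot be told apart, and with a term for sex, estimated from the Cre-negative DMSO libraries, 1 gene, Fn1, passed.

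A direct test compared the imiquimod response of knockout skin with that of Cre-negative skin. In 11 of 34 genes the response was higher in knockout skin and in 1 lower, where 14% and 9.63% of all genes passed in these directions (23.6% either way). The median difference of the log2 responses was 1.28 over the set and 0.11 over all genes. Fn1 differed by 5.05 ± 0.89, adjusted p = 0.00265 and Pi16 by 4.48 ± 0.75, adjusted p = 0.00215, and both kept the call under every alternative. The opposite directions can be read in the levels already given, with imiquimod above DMSO for Fn1 and Pi16 in knockout skin and below it in Cre-negative skin. Mfap5 (2.78 ± 0.66, adjusted p = 0.0104), Loxl1 (2.38 ± 0.60, adjusted p = 0.0141), Pdgfra (2.65 ± 0.68, adjusted p = 0.0144) and Dpt (2.05 ± 0.53, adjusted p = 0.0147) followed. Thbs2, Lox, Fbn1, Dcn and Col4a1 differed by 1.91 to 2.93, and Fbln1 by -1.79 ± 0.50.

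The responses of Tnc (0.84 ± 1.07, adjusted p = 0.593), Col1a1 (0.91 ± 0.79, adjusted p = 0.416), Col3a1 (0.77 ± 0.69, adjusted p = 0.432) and Postn (0.13 ± 0.72, adjusted p = 0.917) were not shown to differ, and that of Dcn differed by 2.07 ± 0.66, adjusted p = 0.0373. Without knockout imiquimod library 1 the count of 12 fell to 2, which were Fn1 and Pi16, without Cre-negative imiquimod library 1 to 4, without knockout DMSO library 3 to 6 and without Cre-negative DMSO library 3 to 7. A term for sex left 5. Beside these values, skeletal muscle markers had a higher response in knockout skin in 8 of 11 cases, endothelial markers in 4 of 10, macrophage markers in 3 of 8, and adipocyte and pericyte markers in 2 each. Keratinocyte markers had a lower response in 4 of 10 cases, and neutrophil markers a lower one in 2 and a higher one in 1 of 8. Their part was not tested.

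The promoters of 6 genes are shown as examples from both sets of changes, chosen after their values were seen and not by rank, with 250 bases before the start of the transcript from RefSeq on GRCm38.p6. Tnc, Pi16, Pdgfra and Thbs2 were higher in knockout than in Cre-negative skin under imiquimod, and Dpt and Ogn were lower in knockout skin with DMSO. Capitals mark matches on either strand to TATAAA for the TATA box, to CCAAT for the box of that name, to GGGCGG for the GC box, to TGANTCA for an AP-1 site and to CAGACA for a SMAD-binding site. In the printed windows no match overlaps one to another motif, and the pair of TATAAA matches of Ogn, on opposite strands, overlap each other. The Tnc window is chr4:64047016-64047265 on the minus strand, that of Pi16 chr17:29318632-29318881 on the plus strand, that of Pdgfra chr5:75152001-75152250 on the plus strand, that of Thbs2 chr17:14694263-14694512 on the minus strand, that of Dpt chr1:164796413-164796662 on the plus strand and that of Ogn chr13:49607765-49608014 on the plus strand.
Tnc: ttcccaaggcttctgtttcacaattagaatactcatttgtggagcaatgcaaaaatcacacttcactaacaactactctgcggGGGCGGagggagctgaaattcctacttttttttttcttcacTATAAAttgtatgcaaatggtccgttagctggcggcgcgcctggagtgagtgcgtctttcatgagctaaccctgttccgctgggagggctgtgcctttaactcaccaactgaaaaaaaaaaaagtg
Pi16: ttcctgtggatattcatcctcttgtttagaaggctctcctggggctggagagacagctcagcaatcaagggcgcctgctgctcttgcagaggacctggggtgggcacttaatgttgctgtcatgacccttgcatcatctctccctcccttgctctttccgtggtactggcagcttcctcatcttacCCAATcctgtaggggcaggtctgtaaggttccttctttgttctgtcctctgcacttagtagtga
Pdgfra: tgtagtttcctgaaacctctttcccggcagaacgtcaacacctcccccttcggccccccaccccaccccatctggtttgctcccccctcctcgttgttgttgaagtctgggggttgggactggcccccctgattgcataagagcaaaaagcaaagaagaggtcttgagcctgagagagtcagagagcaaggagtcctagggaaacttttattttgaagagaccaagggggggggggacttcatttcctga
Thbs2: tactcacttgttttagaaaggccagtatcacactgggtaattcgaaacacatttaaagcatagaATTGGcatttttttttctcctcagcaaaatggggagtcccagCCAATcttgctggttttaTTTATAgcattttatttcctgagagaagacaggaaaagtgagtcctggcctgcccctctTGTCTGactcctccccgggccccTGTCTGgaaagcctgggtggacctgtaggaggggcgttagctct
Dpt: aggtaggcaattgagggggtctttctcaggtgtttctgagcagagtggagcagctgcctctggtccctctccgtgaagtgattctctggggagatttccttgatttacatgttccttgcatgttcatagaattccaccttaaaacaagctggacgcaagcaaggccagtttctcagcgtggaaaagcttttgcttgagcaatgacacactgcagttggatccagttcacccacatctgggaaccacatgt
Ogn: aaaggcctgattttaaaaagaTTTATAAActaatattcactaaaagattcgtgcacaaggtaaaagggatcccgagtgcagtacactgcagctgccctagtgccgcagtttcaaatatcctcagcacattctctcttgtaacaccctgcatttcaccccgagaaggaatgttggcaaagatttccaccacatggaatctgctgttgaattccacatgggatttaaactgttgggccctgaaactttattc

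Windows were at hand for 20 of the 34 genes and named 24 starts. TATAAA stood in 6 of the 24 windows, from 5 genes (Col3a1, Ogn, Postn, Thbs2 and Tnc), and in 12.4% of all 32851 windows of this length. The Tnc match began 126 bases before the start. CCAAT stood in 5 of the 24 windows (5 genes) against 33.8% of all windows, and GGGCGG in 11 (9 genes) against 32.7%. CAGACA stood in 8 (7 genes) against 17.1% and TGANTCA in 1, of Col6a1, against 6.7%. In the printed windows of Pdgfra and Dpt none of these letters was found. A match is a description of the letters and not evidence of a bound factor.

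With DMSO alone, the matrix genes of knockout skin already differed from those of Cre-negative skin. Of 34 genes 4 rose and 10 fell, where 14% of all genes rose and 15.7% fell (29.6% either way), and the median log2 fold change was -0.31 over the set and -0.06 over all genes. The share of the set that fell was above that of all genes and the share that rose was close to it. Those that rose were Tnc, Fbln1, Col12a1 and Col4a2. Libraries of the genotypes did not overlap for 7 members higher and 14 lower, against 21.8% and 26.5% of all genes.

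Col14a1 had 3.57, 1.55 and 3.02 CPM in knockout DMSO skin and 18.4, 10.5 and 16.6 CPM in Cre-negative DMSO skin (-2.51 ± 0.39, adjusted p = 0.000505). Ogn had 3.82, 1.46 and 1.69 CPM in knockout skin and 12.6, 8.75 and 14.8 CPM in Cre-negative skin (-2.49 ± 0.43, adjusted p = 0.000987). Dpt had 28.5, 24.3 and 19.8 CPM in knockout skin and 115, 48.04 and 80.5 CPM in Cre-negative skin (-1.75 ± 0.34, adjusted p = 0.00202). All 3 genes code for proteins that sit on collagen fibrils, and in each the highest knockout library was below the lowest Cre-negative one. Fbln1 moved the other way, with 16.8, 15.2 and 22.04 CPM in knockout skin and 5.81, 2.74 and 3.86 CPM in Cre-negative skin (2.13 ± 0.33, adjusted p = 0.00043). These 4 calls held under every alternative.

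Tnc had 38.2, 145 and 94.6 CPM in knockout and 7.32, 14.9 and 16.1 CPM in Cre-negative skin (2.86 ± 0.73, adjusted p = 0.0101), and kept the call when any 1 library was left out. It lost the call with a term for sex (adjusted p = 0.197) and in females alone. Mfap4 fell (-1.86 ± 0.50, adjusted p = 0.0141), as did Pi16 (-1.45 ± 0.46, adjusted p = 0.0299) and Postn (-1.29 ± 0.45, adjusted p = 0.0457). Col1a2, Fn1, Fbn1 and Mfap5 fell with log2 fold changes between -1.60 and -1.17, and Col12a1 and Col4a2 rose by 1.42 and 1.08. Under a replicate block, with libraries matched by number, Fn1 and Fbn1 lost the call (adjusted p = 0.0826 and 0.0796), leaving 12. With only the compared libraries in the blocked model 21 passed, including all 14. Col1a1 (-1.29 ± 0.51, adjusted p = 0.0695), Col3a1 (-0.99 ± 0.44, adjusted p = 0.106), Dcn (-0.65 ± 0.41, adjusted p = 0.255) and Pdgfra (-0.25 ± 0.42, adjusted p = 0.692) did not pass.

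In place of 14 calls there were 6 without knockout DMSO library 2, 7 without knockout DMSO library 3 or Cre-negative DMSO library 2, 8 without Cre-negative DMSO library 1 and 9 without Cre-negative DMSO library 3. A term for sex left 6 and female libraries alone 5. Library size scaling gave 2 higher and 14 lower. Beside these values, endothelial markers summed to 85.01 to 193 CPM in knockout and 56.8 to 67.4 CPM in Cre-negative DMSO skin, with 4 of 10 higher, and skeletal muscle markers to 1797 to 3084 CPM in knockout and 7866 to 21160.5 CPM in Cre-negative skin, with 10 of 11 lower. Neutrophil markers summed to 17049 to 63212 CPM in knockout and 65.6 to 691 CPM in Cre-negative DMSO skin, with 7 of 8 higher. Adipocyte markers were lower in 4 of 10 cases, pericyte and smooth muscle markers in 2 of 8, and keratinocyte markers in 3 of 10 with 2 higher. Their part in the results was not tested.

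Set against wild-type DMSO skin, knockout DMSO skin showed 5 of 34 genes higher and 4 lower, where 11.3% of all genes were higher and 14.4% lower (25.6% either way), so the count was near the background. The median log2 fold change was -0.08 over the set and -0.06 over all genes. Libraries did not overlap for 8 members higher and 7 lower, against 24.2% and 29.6% of all genes. This comparison uses the same knockout libraries as the one with Cre-negative skin. Wild-type DMSO skin had 13.8 and 20.6 CPM of Col14a1, 15.6 and 14.9 CPM of Ogn and 94.5 and 107 CPM of Dpt, all above the knockout values. Col14a1 (-2.70 ± 0.42, adjusted p = 0.000617), Ogn (-2.83 ± 0.46, adjusted p = 0.000795) and Dpt (-2.06 ± 0.36, adjusted p = 0.00147) fell and held under every alternative. Cd248, which codes for endosialin on fibroblasts and pericytes, fell (-1.86 ± 0.56, adjusted p = 0.0276).

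Fbln2 (1.496 ± 0.42, adjusted p = 0.0199), Eln (1.60 ± 0.47, adjusted p = 0.0243), Col12a1 (1.53 ± 0.48), Tnc (2.67 ± 0.84, adjusted p = 0.0335) and Fbln1 (1.09 ± 0.36) rose. Col1a1 (-0.19 ± 0.56, adjusted p = 0.832), Col3a1 (1.29 ± 0.51, adjusted p = 0.0779), Postn (-0.66 ± 0.49, adjusted p = 0.354), Dcn (-0.95 ± 0.46, adjusted p = 0.143), Pdgfra (0.27 ± 0.47, adjusted p = 0.715) and Pi16 (-0.74 ± 0.50, adjusted p = 0.299) did not pass. The count was 3 without wild-type DMSO library 1, which left Col14a1, Ogn and Dpt, and 5 without wild-type DMSO library 2, without knockout DMSO library 2 or without knockout DMSO library 3. Library size scaling gave 0 higher and 7 lower. Adipocyte markers fell in 9 of 10 cases, with 233 to 441 CPM in knockout and 1555 to 2267 CPM in wild-type skin. Skeletal muscle markers fell in 7 of 11 cases, with 1797 to 3084 CPM in knockout and 8904 to 11859 CPM in wild-type skin, and pericyte and smooth muscle markers in 3 of 8. Neutrophil markers rose in 8 of 8 cases and endothelial markers in 5 of 10. The part of these cells was not tested.

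Under imiquimod, the contrast of knockout and Cre-negative skin ran upward. Of 34 genes 12 rose and 0 fell, where 11.6% of all genes rose and 6.33% fell (17.9% either way), and the median log2 fold change was 0.92 over the set and 0.02 over all genes. The genes that rose were both basement membrane collagens, 3 of 5 glycoproteins (Fn1, Thbs2, Tnc), biglycan (Bgn), 4 of 8 elastic fibre genes (Eln, Mfap5, Lox, Loxl1) and 2 of 4 surface genes (Pdgfra, Pi16). No fibrillar, type VI or fibril-associated collagen gene passed the test. Libraries did not overlap for 18 members higher and 4 lower, against 30.7% and 25.3% of all genes.

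Col4a1 had 138 and 71.1 CPM in knockout imiquimod skin and 13.2 and 16.5 CPM in Cre-negative imiquimod skin (2.81 ± 0.48, adjusted p = 0.00206). Its partner chain Col4a2 had 30.3 and 17.3 CPM in knockout and 4.88 and 3.36 CPM in Cre-negative skin (2.54 ± 0.45, adjusted p = 0.0025). The groups were well apart for both genes, and both calls held under every alternative. The chains assemble into 1 type IV collagen molecule, and the RefSeq starts of the genes lie 21 bases apart on opposite strands of chromosome 8 on GRCm38.p6. Endothelial markers, from cells that also lay down type IV collagen, summed to 202 to 424 CPM in knockout and 41.2 to 49.4 CPM in Cre-negative imiquimod skin. Of these markers 8 of 10 rose and none of the 10 was at 0 counts in knockout skin. Their part in the change of the type IV genes was not tested.

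Pi16 had 115 and 44.5 CPM in knockout and 7.32 and 11.97 CPM in Cre-negative imiquimod skin (3.03 ± 0.60, adjusted p = 0.00452). Fn1 had 526 and 232 CPM in knockout and 19.4 and 49.8 CPM in Cre-negative skin (3.45 ± 0.71, adjusted p = 0.00578). Thbs2, the gene of thrombospondin 2, which restrains vessel growth and affects fibril assembly, had 413 and 166 CPM in knockout and 20.1 and 52.1 CPM in Cre-negative skin (3.000 ± 0.70, adjusted p = 0.0112). In each of these genes the lower knockout library stood above the higher Cre-negative one. Bgn had 198 and 104 CPM in knockout and 27.1 and 35.7 CPM in Cre-negative skin (2.26 ± 0.45, adjusted p = 0.005), and Pdgfra 74.9 and 42.9 CPM in knockout and 5.88 and 16.1 CPM in Cre-negative skin (2.40 ± 0.54, adjusted p = 0.00871). Tnc, already the highest in knockout skin, differed by 3.70 ± 0.92, adjusted p = 0.0145. Lox, Mfap5 and Eln rose by 1.56 to 2.14 on the log2 scale and Loxl1 by 1.498 ± 0.47.

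None of the 5 fibrillar collagen genes passed, and their values went both ways. Col5a2 had 27.01 and 23.02 CPM in knockout and 11.3 and 13.2 CPM in Cre-negative imiquimod skin, without overlap (1.03 ± 0.37, adjusted p = 0.0752). Col1a1 had 139 and 197 CPM in knockout and 128 and 309 CPM in Cre-negative imiquimod skin (-0.38 ± 0.61, adjusted p = 0.717), and Col3a1 had 99.5 and 109 CPM in knockout and 63.99 and 178 CPM in Cre-negative skin (-0.22 ± 0.53, adjusted p = 0.825). The libraries of Col1a1 and Col3a1 overlapped between the genotypes, and the sign of each fold change turned under other settings. Col14a1 (-1.47 ± 0.51, adjusted p = 0.0599), Postn (-1.16 ± 0.56, adjusted p = 0.18) and Dcn (1.42 ± 0.52, adjusted p = 0.0726) did not pass the test. Mfap4 rested on 11 and 2 counts in knockout imiquimod skin and 12 and 22 counts in Cre-negative skin, so its values there are imprecise.

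Without knockout imiquimod library 1, or without Cre-negative imiquimod library 1, only Col4a1 and Col4a2 passed. Without knockout imiquimod library 2, 11 of the 12 passed, and without Cre-negative imiquimod library 2, 9 of the 12 and 2 further members did. All libraries of this comparison were male. Pericyte and smooth muscle markers summed to 322 to 965 CPM in knockout and 115 CPM in both Cre-negative imiquimod libraries, and 4 of 8 were higher. Macrophage markers summed to 858 to 1819.6 CPM in knockout and 283 to 749 CPM in Cre-negative skin (3 of 8 higher), and keratinocyte markers to 8296 to 13939 CPM in knockout and 17515 to 28024 CPM in Cre-negative skin (3 of 10 lower). Neutrophil markers were higher in 5 of 8 cases. Skeletal muscle markers, at 1495 to 4166 CPM in knockout and 1069.8 to 1912 CPM in Cre-negative skin, passed in 0 of 11 cases. The part of these cells in the results was not tested.

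**Figure D3:**
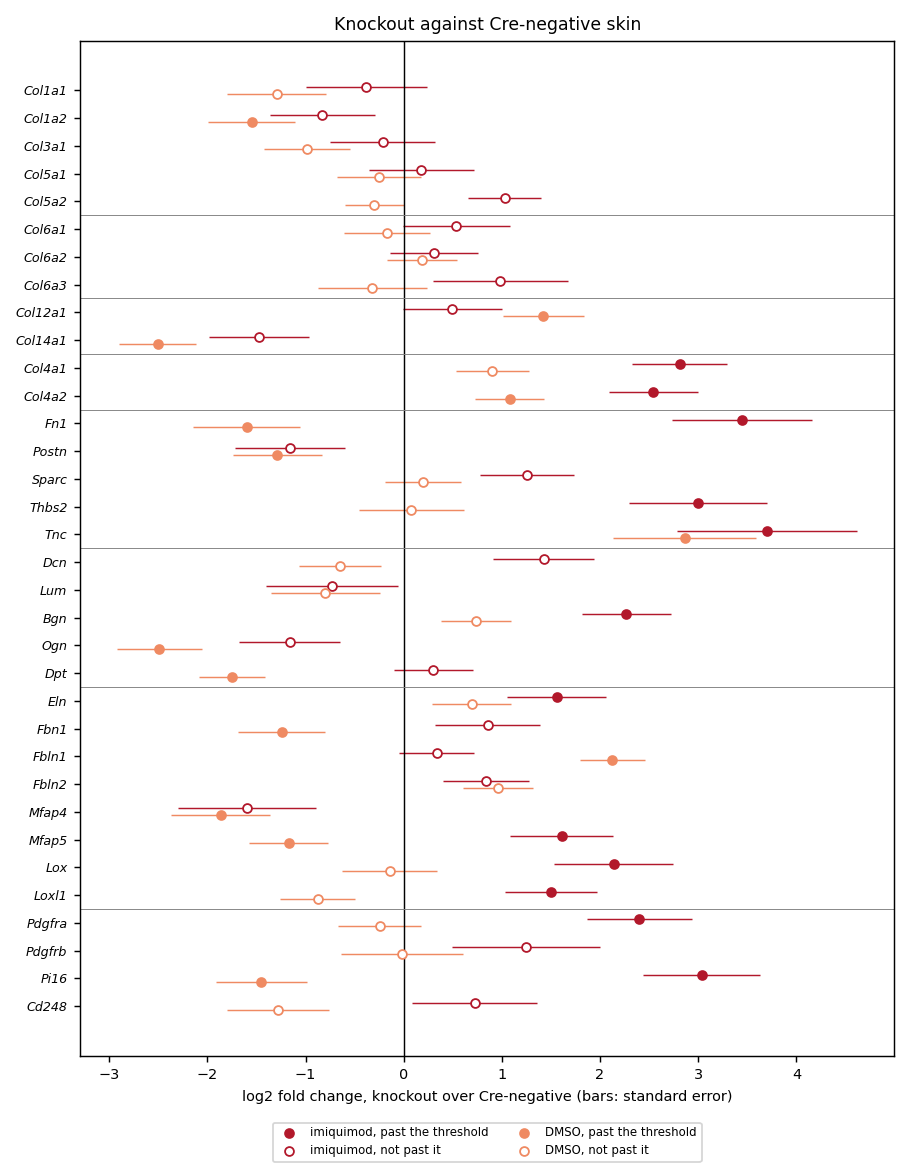
Log2 fold change of knockout over Cre-negative skin for each gene with imiquimod and with DMSO, with bars of 1 standard error and filled points where the adjusted p was under 0.05. With imiquimod 12 points are filled on the right and 0 on the left, and with DMSO 4 on the right and 10 on the left.

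**Figure D4:**
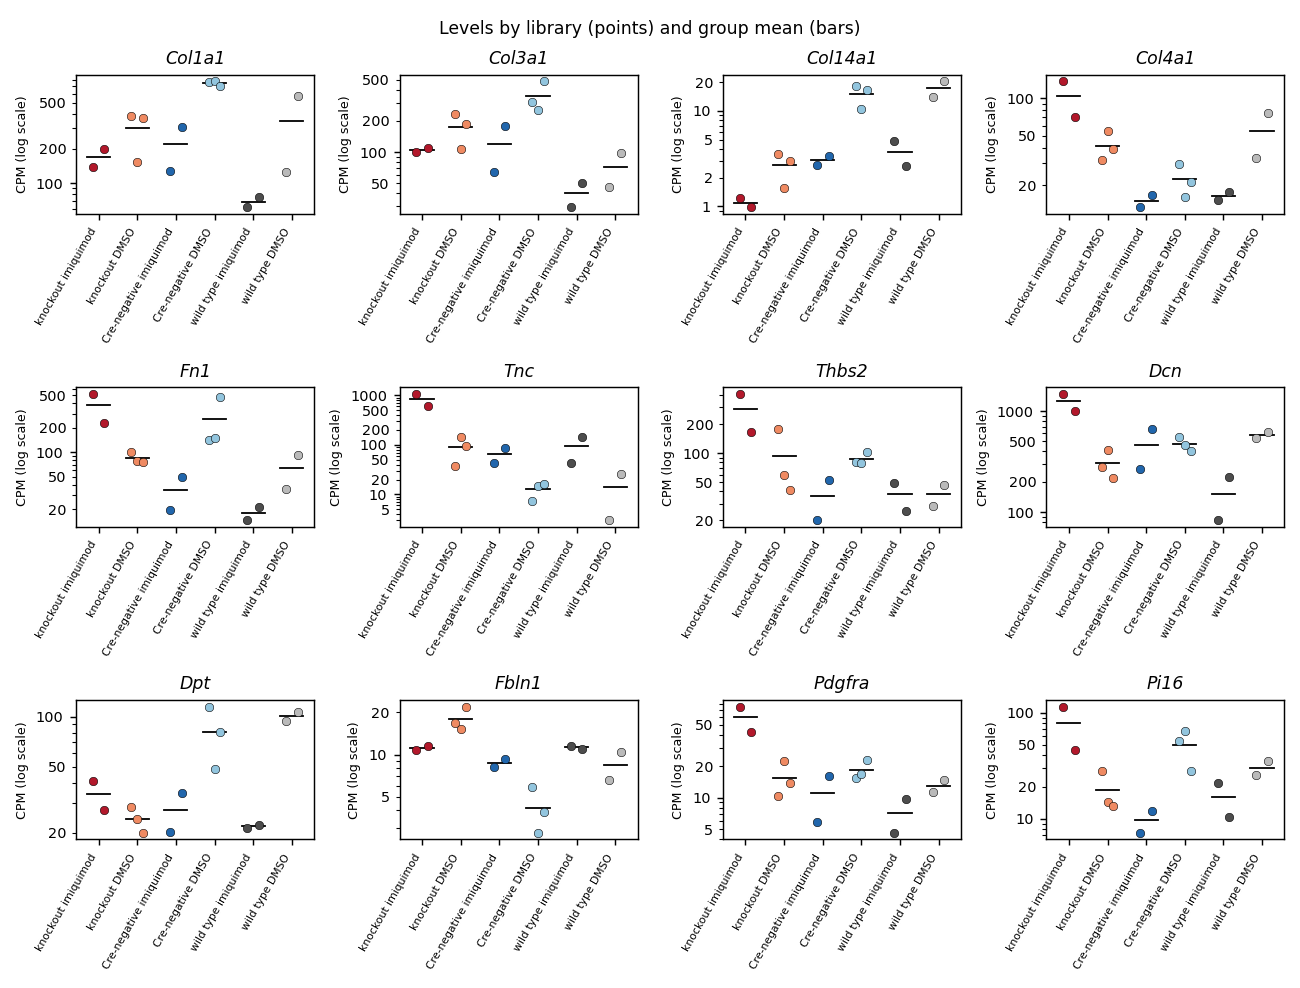
CPM of 12 genes on a log scale in every library, with a bar at the group mean, for knockout, Cre-negative and wild-type skin with imiquimod left of DMSO. The knockout imiquimod libraries are the highest for Tnc, at 1078 and 605 CPM, and the lowest for Col14a1, at 1.22 and 0.974 CPM.

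Cre-negative and wild-type skin, neither of which lacks Nedd8 by design, were compared as a check of the controls. With imiquimod the Cre-negative libraries were male and the wild-type ones female, so sex and genotype cannot be told apart there. With DMSO the wild-type libraries were female and the Cre-negative ones of both sexes. No member passed the adjusted threshold with edgeR's quasi-likelihood test under DMSO or imiquimod, and 0% of all genes did. At an unadjusted p under 0.05, 9 of 34 genes passed with DMSO and 9 with imiquimod, against 6.99% and 17.1% of all genes. Libraries did not overlap for 10 members higher and 6 lower, against 16.1% and 14.5% of all genes, with DMSO, and for 9 members higher and 5 lower, against 20.9% and 21.1% of all genes, with imiquimod. DESeq2 called 1 member with DMSO and 3 with imiquimod, where it called 144 and 552 of all genes. With limma voom 2 members and 0 passed, where 195 and 0 of all genes did. Col3a1 had 303, 253 and 486 CPM in Cre-negative and 45.6 and 97.2 CPM in wild-type DMSO skin without overlap (2.28 ± 0.53, adjusted p = 0.158). With imiquimod its log2 fold change was 1.60 ± 0.55, adjusted p = 0.193. Col1a1 had 1.10 ± 0.58, adjusted p = 0.83 with DMSO and 1.67 ± 0.63, adjusted p = 0.221 with imiquimod. Tnc, Postn, Dcn, Pdgfra and Pi16 had log2 fold changes between -0.30 and 0.71 with DMSO and between -1.43 and 1.62 with imiquimod.

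Genes that process collagen, other matrix genes and regulators of fibroblasts were read from 5 further lists. With imiquimod, knockout skin was higher than Cre-negative skin in 9 of 27 collagen processing genes, 10 of 35 other dermal matrix genes, 7 of 21 genes of TGF-beta signalling and contraction, 7 of 17 matrix turnover genes and 7 of 20 other fibroblast genes, and lower in 1 gene, of the dermal matrix list, where 11.6% of all genes were higher and 6.33% lower. In the same order the lists had median log2 fold changes of 1.12, 1.22, 1.10, 1.61 and 0.80, where all genes had 0.02. For collagen processing these were led by Bmp1 (2.27 ± 0.42), a protease that trims procollagen, and Fkbp10 (2.43 ± 0.49), a collagen chaperone. The collagenase gene Mmp13 (5.86 ± 0.71) and the aggrecanase gene Adamts4 (4.49 ± 0.78) led the turnover list. In the TGF-beta list, Inhba (3.09 ± 0.59), the gene of an activin subunit, and Tgfb1 (2.69 ± 0.60), that of a TGF-beta ligand, were among those that rose. Prrx1 (2.46 ± 0.36), Twist2 (3.06 ± 0.59) and En1 (3.38 ± 0.65), transcription factors of dermal fibroblasts, rose too.

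With DMSO the same contrast gave 2 higher and 3 lower of 27 collagen processing genes, 3 and 9 of 35 other matrix genes, 5 and 1 of 21 TGF-beta genes, 6 and 3 of 17 turnover genes and 4 and 6 of 20 other fibroblast genes, with medians of -0.13, -0.71, 0.50, 0.57 and -0.45 in that order and -0.06 over all genes. Of all genes 14% were higher and 15.7% lower there, so the 5 calls of the collagen processing list were below the background of 29.6% either way. Pcolce2, an enhancer of procollagen trimming, was at -2.997 ± 0.36, and Col16a1, a fibril-associated collagen, at -2.17 ± 0.31. Tnxb, the gene of tenascin-X (-2.49 ± 0.41), fell while Mmp13 (5.55 ± 0.62) and Mmp3 (3.84 ± 0.59) rose. Against wild-type DMSO skin the counts were 3 and 2, 2 and 11, 3 and 2, 6 and 2, and 2 and 6 in the same order of lists, where 11.3% of all genes were higher and 14.4% lower. The medians were 0.31, -0.40, -0.28, 0.76 and -0.86, against -0.06 over all genes.

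Under imiquimod, Cre-negative skin had 2 higher and 4 lower collagen processing genes, 0 and 10 other matrix genes, 2 and 4 TGF-beta genes, 4 and 3 turnover genes and 2 and 6 other fibroblast genes, where 8.15% of all genes rose and 10.1% fell. The medians were -0.77, -1.07, -0.56, 0.13 and -0.86, against -0.06 over all genes, and the 6 calls among 27 collagen processing genes were near the background of 18.2%. Col16a1 (-3.06 ± 0.38), Timp3 (-2.78 ± 0.40), an inhibitor of matrix proteases, and Ccn2 (-2.92 ± 0.55), a target of TGF-beta, fell there. Wild-type skin had 1 and 4, 0 and 16, 2 and 6, 4 and 5, and 0 and 8, where 9.59% of all genes rose and 11.8% fell. The medians were -0.33, -1.56, -0.72, -0.11 and -1.46, against -0.09 over all genes, with Timp3 at -2.88 ± 0.42 and Ccn2 at -3.46 ± 0.58. In knockout skin the counts were 1 and 0, 4 and 1, 4 and 0, 6 and 0, and 4 and 0, where 8.56% of all genes rose and 2.52% fell. The medians were 0.69, 0.51, 0.40, 1.14 and 0.20, against -0.04 over all genes, with Prrx1 at 2.35 ± 0.31 and Thbs1 at 3.40 ± 0.72. The responses of knockout and Cre-negative skin differed upward in 7, 9, 4, 6 and 9 genes and downward in 1, 0, 0, 0 and 2, where 14% and 9.63% of all genes did. The median differences were 1.42, 1.53, 0.93, 1.07 and 1.57, against 0.11 over all genes. Timp3 (2.86 ± 0.52), Tnxb (3.91 ± 0.64) and Prrx1 (3.32 ± 0.45) were among the upward ones.

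**Figure D5:**
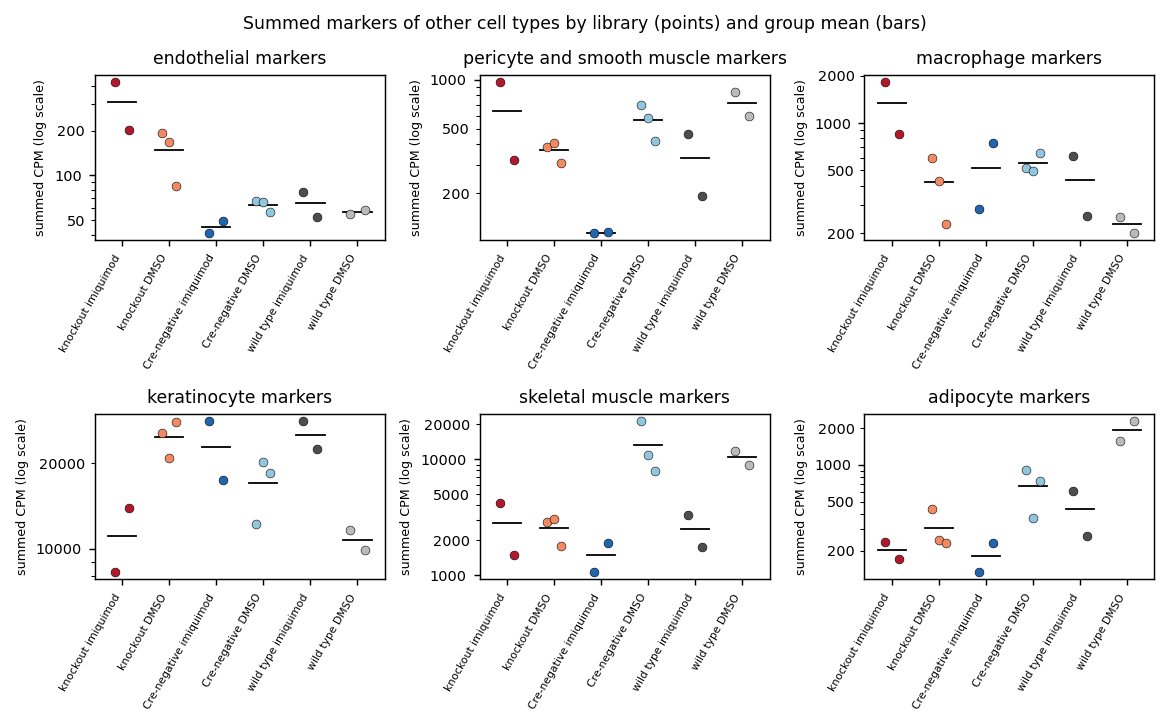
Summed CPM of marker lists of 6 other cell types on a log scale, for every library with a bar at the group mean. Endothelial markers span 202 to 424 CPM in knockout imiquimod skin and 41.2 to 49.4 CPM in Cre-negative imiquimod skin, and skeletal muscle markers span 1797 to 3084 CPM in knockout DMSO skin and 7866 to 21160.5 CPM in Cre-negative DMSO skin.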

How the data were processed

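Whole skin was sequenced with a QuantSeq forward kit, which reads a tag near the 3′ end of polyadenylated transcripts. The raw counts per gene for 56953 genes and 14 libraries are as deposited by the authors, and the deposited table's other unit, gene length, was not used. STAR, featureCounts and DESeq2 appear in the submitters' processing notes, beside the builds GRCm39 and GRCm38, with neither version nor role. The exon positions of the table are on GRCm39. Whether counting used strand or multimapping reads is not given in the sources. Genes that overlap a member on the genome (Cenpp at Ogn, Mapk7 at Mfap4, Gm38211 at Col5a2) could share its reads.

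filterByExpr kept 16027 genes, and after TMM scaling edgeR 4.0.16 (R 4.3.3) fitted all 14 libraries together, 6 group means in 1 quasi-likelihood model, with Benjamini-Hochberg adjustment and a threshold of 0.05. The procedure was tested on simulated counts that varied independently between genes and libraries, so that test does not cover shifts shared by many genes of a library. The value after ± is a standard error for a fold change and an SD for a level. Nothing in the labels ties libraries to animals, so p-values measure spread between samples, which may be technical. In 3 pairs of knockout and Cre-negative DMSO libraries with the same number, deviations from the group means correlated at 0.26, 0.102 and 0.166 over genes. Knockout DMSO and wild-type imiquimod libraries reached 0.493 and 0.414, and 11 of 31 same-numbered pairs were over 0.1. These values do not single out 1 comparison, so whether a shared number marks a pair is not known. Members and lists were chosen with earlier results of these data known. In full are given, per comparison, up to 6 members past the threshold with the smallest p, and Col1a1, Col3a1, Tnc, Postn, Dcn, Pdgfra and Pi16. Other named members are given by count and range, or were chosen after their values were seen. Up to 4 genes a list are named, by smallest p.

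Alternatives were DESeq2 1.42.0, limma 3.58.1 voom with sample weights, median-of-ratios scaling, library size alone, no or a stricter filter (5 CPM in 2 libraries), models of the compared groups, a replicate block, a term for sex, libraries of 1 sex, and leaving out the 2 libraries highest in 18S or each library in turn.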

Additional observations from a re-analysis of the deposited data

Results flagged for a closer look

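For 12 of the 34 genes the effect of imiquimod differed between knockout and Cre-negative skin, where 23.6% of all genes did. This was by the test of the difference itself, with edgeR's quasi-likelihood test and Benjamini-Hochberg adjustment. Of the 12 calls, only those of Fn1 and Pi16 held under every alternative. The values are differences of log2 responses, knockout minus Cre-negative. Fn1 differed by 5.05 and Pi16 by 4.48, and in both genes the response was upward in knockout skin and downward in Cre-negative skin. Thbs2 differed by 2.93, Mfap5 by 2.78, Pdgfra by 2.65, Loxl1 by 2.38 and Lox by 2.28. Fbn1 differed by 2.10, Dcn by 2.07, Dpt by 2.05 and Col4a1 by 1.91. Fbln1 was the exception in direction, at -1.79. The knockout side of this contrast compares male with female libraries, and the part of sex in it cannot be told apart from that of treatment there.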

How the results depend on the processing

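Of 83 calls of a member in a comparison, 0 reversed, 17 held when any 1 library was left out and 16 held under every alternative. Of their 1348 alternative values 365 had the same direction without passing the threshold. Leaving out 1 library gave 6 to 12 called members for knockout over Cre-negative DMSO skin, 2 to 11 with imiquimod and 3 to 7 for knockout against wild type. It gave 2 to 9 for imiquimod in Cre-negative, 0 to 8 in knockout and 3 to 10 in wild-type skin, 2 to 13 for the difference of responses, and 0 to 0 and 0 to 1 for Cre-negative against wild-type skin with DMSO and imiquimod. Where this leaves 1 library in a group, the model takes its spread from the rest. A term for sex gave 6 for knockout against Cre-negative DMSO skin (5 in females only), 7 for the Cre-negative response (7 in males only), 1 for the knockout response and 5 for the difference. A model of the compared groups alone gave 5 for knockout against wild-type, 4 for the wild-type response and 20 for the Cre-negative response. With no filter the knockout response had 11. For Cre-negative against wild-type skin, DESeq2 gave 1 and 3, where 144 and 552 of all genes passed. With limma voom it was 2 with DMSO, where 195 of all genes passed, and no filter gave 3 and 6. Causes were not tested.

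Library size in place of TMM moved the median of all genes by -0.336 for knockout against Cre-negative DMSO skin, 0.402 with imiquimod, -0.442 against wild type, -0.582, 0.158 and -0.688 for the Cre-negative, knockout and wild-type responses, 0.742 for the difference of responses and -0.103 for Cre-negative against wild-type DMSO skin. The split became 7 higher and 0 lower for the knockout response.

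With a replicate block in the model of all libraries, 11 members passed for knockout against Cre-negative imiquimod skin, 7 for knockout against wild type, 11, 6 and 13 for the Cre-negative, knockout and wild-type responses, 10 for the difference and 0 in the control comparisons. In these, as in knockout against Cre-negative DMSO skin, the libraries are known to share only a number. With crossed numbers the counts were 13 for knockout against Cre-negative imiquimod skin and 11 for the wild-type response, an alternative chosen after seeing the data, as was the blocked model of the compared libraries alone.

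No sign turned for a gene that had passed. Of genes that had not passed, only Col1a1, Col3a1, Tnc, Postn, Dcn, Pdgfra and Pi16 were followed, and not between Cre-negative and wild-type skin. Other genes that had not passed may have turned too. The turned signs of the followed genes come next, and ranges are over leaving out 1 library. For knockout over Cre-negative DMSO skin Pdgfra had 0.012 without the libraries highest in 18S. With imiquimod Col1a1 had 0.10 by library size, 0.37 without the libraries highest in 18S and -0.95 to 0.43, and Col3a1 0.27, 0.68 and -0.84 to 0.74. Over wild type, Col1a1 had -0.86 to 1.28, and Pdgfra -0.16 by library size and -0.085 to 0.47. Dcn in Cre-negative skin had 0.000312 with DESeq2, 0.000345 with median-of-ratios scaling and -0.83 to 0.58. Col3a1 in knockout skin had 0.058 with a term for sex. Postn in wild-type skin had -0.21 with voom, -0.46 by library size, -0.038 with the stricter filter, -0.11 with the block and -1.08 to 0.73. Its difference of responses was -0.19 with voom and -0.40 to 0.41.

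Groups of 2 or 3 libraries limit these results: the back or ear site, the animals and any vehicle cream are not labelled. Induction cannot be told apart from the knockout genotype, nor sex from treatment in knockout skin. Between Cre-negative and wild-type skin with imiquimod, sex cannot be told apart from genotype.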

Other observations

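In some groups replicates differed over most of the set. In Cre-negative imiquimod skin library 2 was above library 1 in 30 of 34 genes, with a median log2 ratio of 0.98, and its share of 18S counts was 19.1% against 9.91% in library 1. In wild-type DMSO skin library 2 was above library 1 in 31 of 34 genes, with a median log2 ratio of 0.78. In knockout imiquimod skin library 2 was above library 1 in 12 of 34 genes and in wild-type imiquimod skin in 20 of 34. In Cre-negative DMSO skin library 3 was above library 1 in 17 of 34 genes and above library 2 in 27 of 34. In knockout DMSO skin library 2 was above library 1 in 9 of 34, and library 3 above library 2 in 19 of 34.

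Several members are neighbours on the genome (GRCm39). Col3a1 and Col5a2 on chromosome 1 are 24614 bases apart on opposite strands, and Dcn and Lum on chromosome 10 are 46984 bases apart on the same strand. Dcn rose in knockout skin with imiquimod, and Lum passed the test in no comparison.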
